A study of Homo sapiens with 12 samples.

Results

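Matrix metalloproteinases and their tissue inhibitors were followed as 10 genes, namely the proteases MMP1, MMP2, MMP3, MMP9, MMP13 and MMP14 and the inhibitors TIMP1, TIMP2, TIMP3 and TIMP4. They were chosen by gene name from the 57773 genes of the count table. All 10 passed the filter on low counts, which kept 20571 genes. RNA was sequenced from MDA-MB-231, an established human cell line of triple-negative breast cancer, cultured in DMEM with fetal bovine serum. The 12 libraries form 4 groups of 3. Libraries 10 to 12 come from cells given TGFβ together with alisertib, libraries 4 to 6 from cells given TGFβ, libraries 7 to 9 from cells given alisertib, and libraries 1 to 3 from cells with no treatment. Treatment lasted 48 h in the treated groups, and the labels give no time for the untreated cells. TGFβ, a secreted growth factor, signals to the nucleus through SMAD proteins. Alisertib blocks Aurora A, a kinase that cells need for mitosis. The sources used here give neither the TGFβ isoform nor doses nor a vehicle. All groups are 1 cell line, and the labels do not say whether the 3 libraries of a group are separate cultures, so the p-values measure the spread between these libraries only.

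Matrix metalloproteinases are zinc-dependent enzymes that cut collagens and other matrix proteins. Most are secreted as inactive proenzymes, while MMP14 sits in the plasma membrane. TIMPs bind the active site of the enzymes and block it. A complex of MMP14 and TIMP2 at the cell surface also activates the MMP2 proenzyme, so a TIMP can serve activation as well as inhibition. Transcripts of these genes say nothing direct about enzyme activity.

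Of the 10 genes, MMP14, TIMP1, TIMP3 and TIMP4 have an entry in the RefSeq promoter table of the build GRCh38.p14, and 3 of these are shown because TGFβ moved them in opposite directions, MMP14 and TIMP1 upward and TIMP3 downward. Each sequence holds the 250 bases before the annotated start, 5′ to 3′ on the plus strand, at chr14:22836335-22836584 for MMP14, chrX:47582186-47582435 for TIMP1 and chr22:32801455-32801704 for TIMP3. Capitals mark the GC box GGGCGG on either strand in MMP14 and TIMP3, and TGAGTAA on either strand in TIMP1.
MMP14: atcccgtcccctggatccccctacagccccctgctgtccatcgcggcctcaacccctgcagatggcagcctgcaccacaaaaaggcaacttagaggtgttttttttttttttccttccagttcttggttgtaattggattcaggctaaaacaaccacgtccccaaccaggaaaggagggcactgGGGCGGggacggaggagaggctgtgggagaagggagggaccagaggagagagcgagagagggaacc
TIMP1: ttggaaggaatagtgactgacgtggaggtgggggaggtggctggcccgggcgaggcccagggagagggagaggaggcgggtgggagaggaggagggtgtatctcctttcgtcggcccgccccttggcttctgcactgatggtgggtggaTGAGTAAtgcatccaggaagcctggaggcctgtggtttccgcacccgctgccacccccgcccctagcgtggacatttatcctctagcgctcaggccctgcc
TIMP3: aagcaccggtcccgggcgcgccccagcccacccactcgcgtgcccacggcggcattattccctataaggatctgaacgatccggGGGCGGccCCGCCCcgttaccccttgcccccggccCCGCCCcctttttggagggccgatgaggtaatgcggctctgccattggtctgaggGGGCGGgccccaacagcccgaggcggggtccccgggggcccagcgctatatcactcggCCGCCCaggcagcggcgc

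The TIMP3 window held 5 GC boxes, the MMP14 window 1 and the TIMP1 window 2, and 42.6% of 35114 RefSeq promoters of this length hold at least 1. How many hold 5 was not counted. The GC content was 72.4% in the TIMP3 window, 56.8% in the MMP14 window and 64.8% in the TIMP1 window. The letters TGAGTAA, a variant of the AP-1 consensus TGAGTCA, stood once in the TIMP1 window and in 2.21% of all windows. This variant was searched because it is known from the TIMP1 promoter, so its presence there is no finding. The consensus AP-1 letters TGANTCA were in none of these 3 windows and in 6.57% of all windows. The SMAD-type letters CAGAC stood once in the TIMP3 window and in neither of the other windows, against 38% of all windows. Motifs were searched on both strands, and TGANTCA and TGAGTAA cannot match the same bases. A match describes the letters only.

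Libraries held 105921831 to 120619368 counts in the combination group, 110282980 to 118220032 in the TGFβ group, 97048328 to 105563951 in the alisertib group and 93701658 to 100328721 in the untreated group. In each group 1 library was set apart, namely libraries 10, 6, 9 and 1. These 4 were picked from these same data, so the values below describe that choice and are no test of it. Over 11712 genes, the deviations of these 4 libraries from their group means had pairwise correlations of 0.69 to 0.833. Against GC content the deviations had a Spearman rho of -0.716 to -0.779 over 11469 genes. In the other libraries rho was 0.16 to 0.797. Deviations cancel out within a group, so a rho of opposite sign there is partly built in. Genes within a library are not independent, so these values only describe the libraries. The transcripts of MMP9, MMP14 and TIMP1 had GC contents of 62.4%, 58.9% and 57.9%, and all 3 lay under their group mean in each of those 4 libraries. MMP2, at 56.5%, lay above its group mean in library 9, by 0.364 on the log2 scale. TIMP4, at 54.1%, lay above its group mean in libraries 1 and 6, by 0.0416 and 0.05, and under it in libraries 9 and 10. TIMP2, at 53.7%, lay under its group mean in all 4. The line's expected markers VIM, CD44, EGFR and FOSL1 were present at 29.5 RPKM or more in every library, ESR1 and PGR had at most 4 counts, and ERBB2 lay at 4.7 to 7.09 RPKM. Of 7 luminal markers 3 were above 1 RPKM in each group, namely KRT8 at 44.6 to 66.4, KRT18 at 81.5 to 105 and GATA3 at 1.03 to 2.33 RPKM, while FOXA1 had at most 6 counts and CDH1 at most 0.956 RPKM. The leukocyte markers PTPRC, CD3E, CD79A and LYZ had at most 18, 4, 20 and 24 counts. CD14 lay at 0.339 to 1.54 RPKM and CD68 at 20.1 to 42 RPKM. The summed level of 6 leukocyte markers, most of it CD68, was 37.3 to 42.5 RPKM in the combination group, 33 to 37 RPKM in the TGFβ group, 30.6 to 33.4 RPKM in the alisertib group and 20.9 to 27.9 RPKM in the untreated group. Of the 6, 1 was above 1 RPKM in each treated group and 2 in the untreated group. Their part in the results was not tested.

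Compared per gene length, in RPKM scaled with TMM factors (see the plot of levels per gene length), MMP14 and TIMP2 stood at similar levels in untreated cells, at 78.2 ± 8.11 and 80.3 ± 4.51 RPKM (SD, n = 3). TIMP1 followed at 65.4 ± 10 RPKM and TIMP3 at 43.4 ± 0.0416 RPKM. The ranges of MMP14, TIMP2 and TIMP1 touched or overlapped in these cells except for TIMP1 and TIMP2, where the highest TIMP1 value was 72.8 and the lowest TIMP2 value 75.1 RPKM. The other genes were far lower, with TIMP4 at 1.56 ± 0.121, MMP1 at 0.954 ± 0.113, MMP9 at 0.369 ± 0.0679 and MMP2 at 0.124 ± 0.0419 RPKM. MMP3 and MMP13 were close to the detection floor, at 0.0299 and 0.0209 RPKM. MMP14, the membrane-anchored activator of MMP2, thus held 98.1% ± 0.236 of the summed RPKM of the 6 MMPs in untreated cells.

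**Figure D1:**
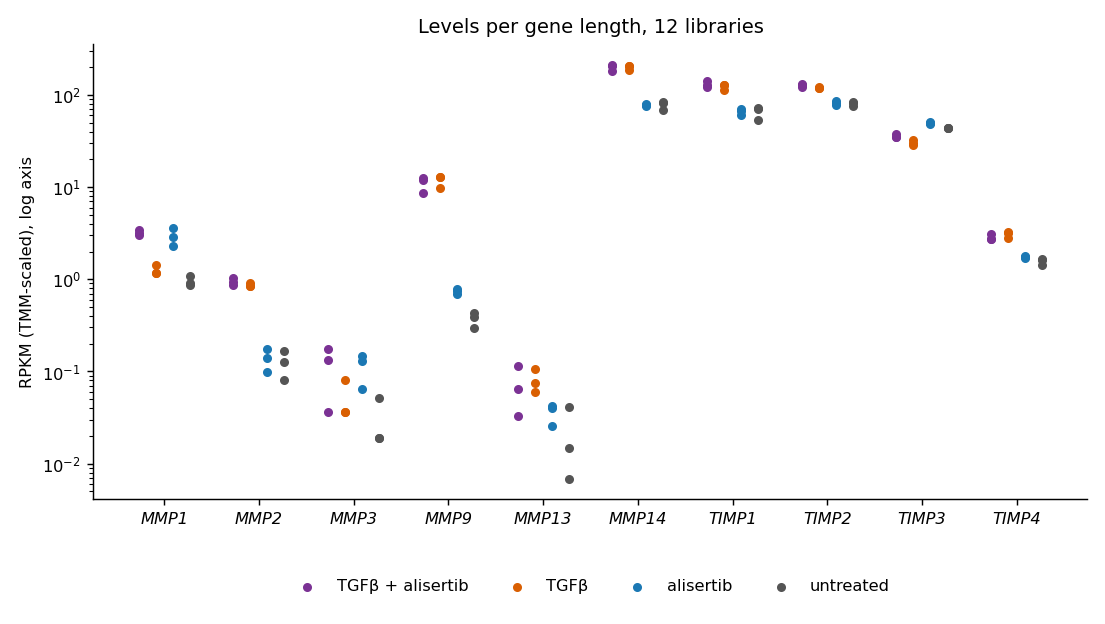
Level of each gene per gene length in all 12 libraries (RPKM scaled with TMM factors, log axis), with 1 point per library and 4 colours for the groups. MMP14, TIMP1, TIMP2 and TIMP3 lay at 28.9 RPKM or more in every library, while MMP3 and MMP13 were the lowest by mean in each group.

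TGFβ raised 4 of the 6 MMPs and 3 of the 4 TIMPs and lowered TIMP3. Against untreated cells 8 of the 10 genes passed the edgeR test at an adjusted p under 0.05, 7 higher and 1 lower, where 38.6% of all tested genes passed (18.5% higher and 20.1% lower). The median log2 fold change was 0.95 over the 10 genes and -0.0055 over all 20571 tested. The values of the groups did not overlap for 9 of the 10 genes, against 46.4% of all tested genes. MMP3 and MMP13 had 2 to 12 counts in untreated cells and passed the low-count filter through treated libraries, so these counts support no property of the list. In RNA of a whole culture, a change in the number of cells that express a gene and a change in the RNA per cell cannot be told apart.

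**Figure D2:**
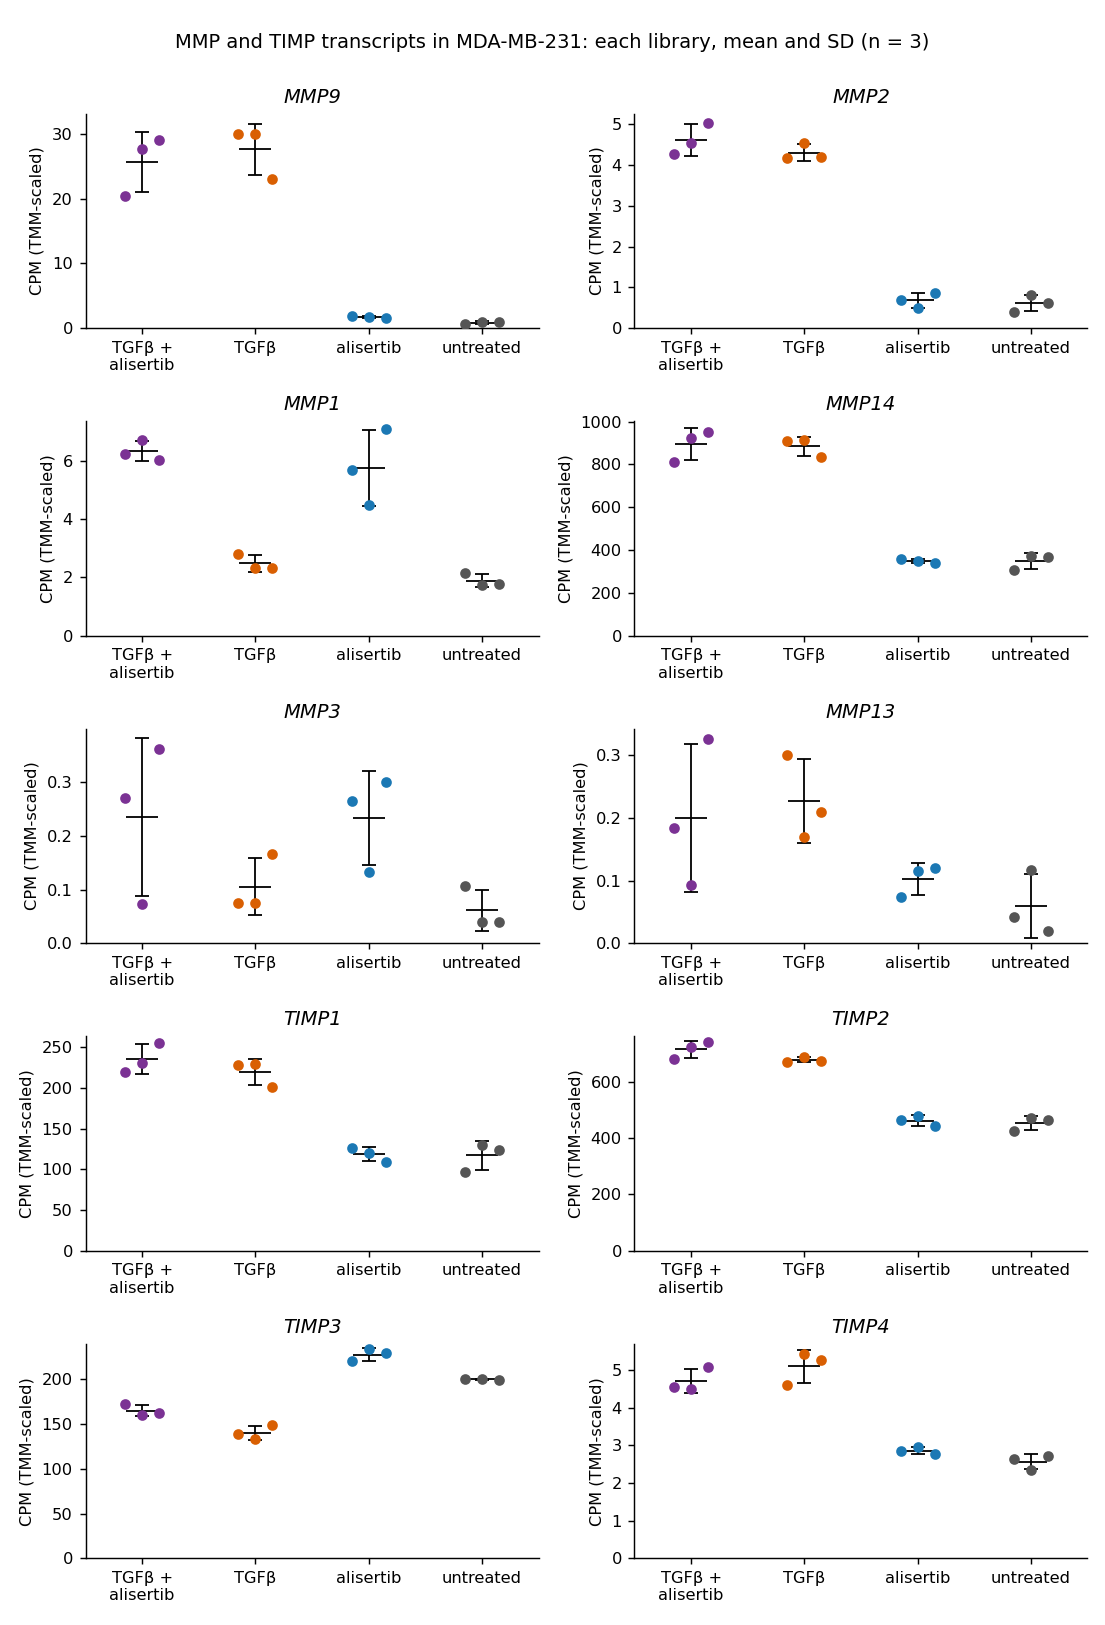
CPM (counts scaled to library size with TMM factors) of each gene in each library, with the mean and SD of 3 libraries per group and linear axes from 0. MMP9 stood at 20.3 CPM or more in every library given TGFβ and at 1.81 CPM or less elsewhere, while MMP1 was high in the groups given alisertib.

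MMP9, a secreted gelatinase that degrades denatured collagen and basement membrane collagen, moved most. It had 29.9, 29.9 and 23.1 CPM with TGFβ, against 0.687, 0.901 and 0.997 CPM in untreated cells, so that the groups lay far apart. The fold change was 31.9 (95% interval of the log2 value 4.62 to 5.37, edgeR adjusted p = 2.21e-11), and MMP9 ranked 67th in rise among all tested genes. MMP2, the other gelatinase and the target of the MMP14 and TIMP2 complex, had 4.17, 4.54 and 4.19 CPM with TGFβ, against 0.401, 0.814 and 0.625 CPM in untreated cells. It rose 6.96-fold (log2 2.80 ± 0.21 SE, edgeR adjusted p = 6.71e-08), yet stayed at 0.872 RPKM, far under MMP9 at 11.8 ± 1.69 RPKM. MMP14 had 909.6, 912 and 834 CPM with TGFβ, against 307, 371 and 369 CPM in untreated cells. It rose 2.54-fold (log2 1.34 ± 0.08, edgeR adjusted p = 3.5e-09) and gained more RPKM than any other of the 10 genes, at 198 ± 10 RPKM with TGFβ and 78.2 ± 8.11 RPKM in untreated cells (SD, n = 3).

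Of the 3 collagenase and stromelysin genes clustered on chromosome 11, only MMP13 passed. MMP13, a collagenase of cartilage and tumour stroma, had 32, 18 and 24 counts with TGFβ, against 4, 12 and 2 counts in untreated cells, a log2 fold change of 1.90 ± 0.58 (edgeR adjusted p = 0.0189). The call was lost without library 1, 3 or 4 (edgeR adjusted p = 0.0609, 0.0767 and 0.0766). MMP1, the interstitial collagenase, had 2.81, 2.31 and 2.32 CPM with TGFβ, against 2.13, 1.73 and 1.78 CPM in untreated cells. The groups did not overlap, but the log2 fold change of 0.40 ± 0.16 did not pass (edgeR adjusted p = 0.0598, 95% interval 0.06 to 0.74). It passed without library 1, 8 or 9 (edgeR adjusted p = 0.0356, 0.0284 and 0.0274), with DESeq2 (adjusted p = 0.0442), without a low-count filter (0.0393), without libraries 1, 6, 9 and 10 (0.00291) and with a covariate for them (0.0168). MMP3, stromelysin 1, had 8, 8 and 19 counts with TGFβ, against 10, 4 and 4 counts in untreated cells, and the groups overlapped (log2 0.80 ± 0.68, edgeR adjusted p = 0.388).

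Among the inhibitors, TIMP1, which binds MMP9 and its proenzyme, had 228, 229 and 201 CPM with TGFβ, against 96.6, 130.3 and 124 CPM in untreated cells. It rose 1.87-fold (log2 0.90 ± 0.10, edgeR adjusted p = 4.17e-06). TIMP2, which bridges MMP14 and proMMP2, averaged 678 ± 9.34 CPM with TGFβ and 452 ± 25.4 CPM in untreated cells (SD, n = 3), a 1.5-fold rise (edgeR adjusted p = 4.12e-07). TIMP4, the rarest of the inhibitors here, rose 1.98-fold, at 5.1 ± 0.436 CPM with TGFβ and 2.57 ± 0.2 CPM in untreated cells (edgeR adjusted p = 1.92e-06). TIMP3, which is bound to the matrix and also inhibits ADAM proteases, was the exception. It had 139, 133 and 148 CPM with TGFβ, against 199.7, 199.9 and 199.5 CPM in untreated cells, with a log2 fold change of -0.51 ± 0.05 (edgeR adjusted p = 8.43e-07). TIMP3 thus took 11% ± 0.931 of the summed RPKM of the 4 TIMPs with TGFβ, against 22.9% ± 1.81 in untreated cells, while TIMP1 took 44.3% ± 1.98 and 34.2% ± 2.78.

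In cells that also received alisertib, TGFβ raised 6 of the 10 genes and lowered TIMP3, where 38.4% of all tested genes passed (19.4% higher and 19% lower). The groups did not overlap for 7 of the 10, against 50.3% of all tested genes. MMP9 had 20.3, 27.7 and 29 CPM with both agents, against 1.81, 1.73 and 1.6 CPM with alisertib, a 15-fold rise (log2 3.90 ± 0.16, edgeR adjusted p = 1.62e-10). MMP2 rose 6.79-fold, MMP14 2.57-fold, TIMP1 1.98-fold, TIMP2 1.55-fold and TIMP4 1.64-fold, and TIMP3 had a log2 fold change of -0.46 ± 0.05 (edgeR adjusted p = 2.83e-06). MMP1 did not pass, with a log2 fold change of 0.14 ± 0.14 (95% interval -0.17 to 0.45). It passed only without libraries 1, 6, 9 and 10 (0.32 ± 0.12, edgeR adjusted p = 0.0297). MMP3 and MMP13 did not pass either, with intervals of -1.11 to 1.15 and -0.19 to 2.14.

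**Figure D3:**
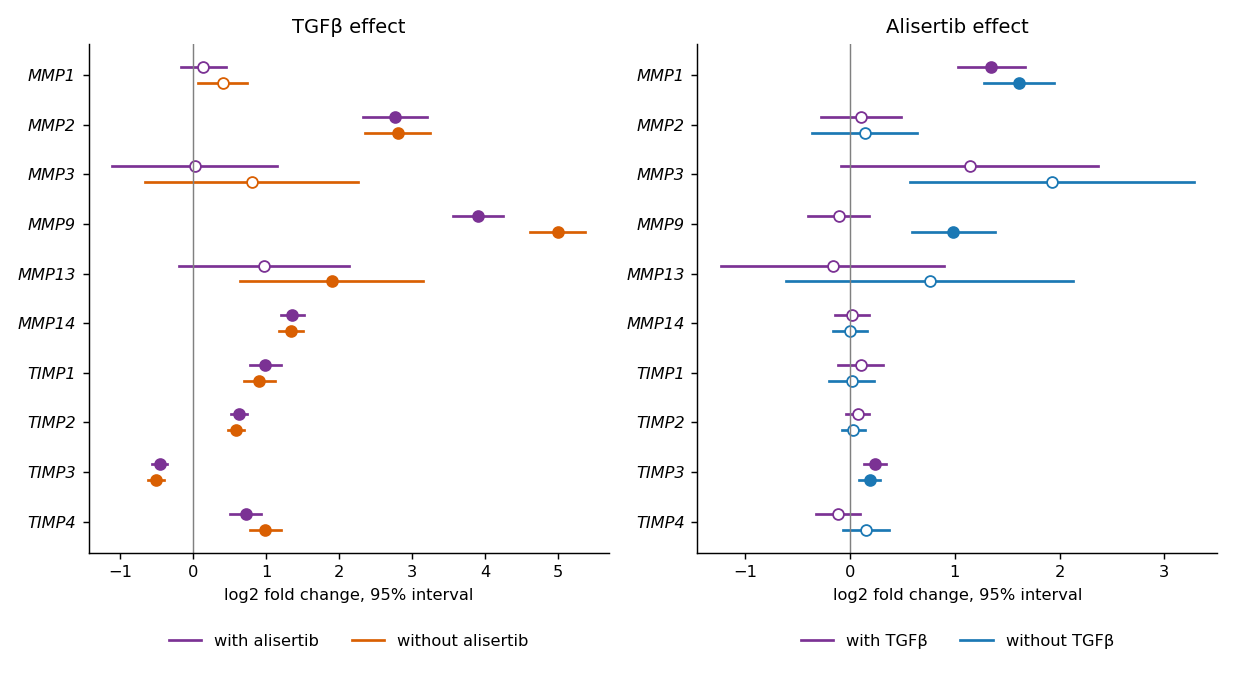
Log2 fold changes of the 10 genes with 95% intervals from the edgeR fit, the TGFβ effect on the left and the alisertib effect on the right, each with and without the other agent. Filled points passed at an adjusted p under 0.05. The TGFβ effects on MMP14, TIMP1 and TIMP2 had overlapping intervals with and without alisertib, and the alisertib effect on MMP9 was 0.99 without TGFβ and -0.11 with it.

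Alisertib alone raised MMP1, MMP9 and TIMP3, which makes 3 of the 10 genes, all upward, where 6.74% of all tested genes passed (3.55% higher and 3.19% lower). The median log2 fold change was 0.17 over the 10 genes and -0.01 over all tested. The groups did not overlap for 5 of the 10, against 21.6% of all tested genes. Among these was MMP3, which had 4 to 10 counts in untreated cells and passed the low-count filter through treated libraries. The count and the median therefore support no property of the list. MMP1 had 5.67, 4.48 and 7.08 CPM with alisertib, against 2.13, 1.73 and 1.78 CPM in untreated cells. It rose 3.06-fold (log2 1.61 ± 0.15, edgeR adjusted p = 4.31e-05), and the lowest alisertib library stood above the highest untreated one. MMP9 had 1.81, 1.73 and 1.6 CPM with alisertib, against 0.687, 0.901 and 0.997 CPM in untreated cells, a 1.98-fold rise (log2 0.99 ± 0.18, edgeR adjusted p = 0.00492). At 0.733 ± 0.0463 RPKM it remained rare.

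TIMP3 had 219.8, 233 and 229 CPM with alisertib, against 199.7, 199.9 and 199.5 CPM in untreated cells, a small rise of 0.19 ± 0.05 on the log2 scale (edgeR adjusted p = 0.0337). The 3 untreated libraries differed by less than 1 CPM, so the groups did not overlap, but the call was lost when 1 of 7 libraries was left out. The edgeR adjusted p was then 0.0816, 0.0717 and 0.0551 without libraries 2, 3 and 4, and 0.0585, 0.13, 0.0916 and 0.053 without libraries 7, 8, 9 and 12. It was 0.102 when only these groups were fitted. MMP3 had 29, 14 and 30 counts with alisertib, against 10, 4 and 4 counts in untreated cells, and did not overlap. Its log2 fold change of 1.93 ± 0.63 did not pass (edgeR adjusted p = 0.0905), but passed without library 1 (0.0397), without libraries 1, 6, 9 and 10 (0.0286), with a covariate for them (0.0135) and with DESeq2 (adjusted p = 0.0485).

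MMP14, TIMP1 and TIMP2, the abundant genes of the group, stayed within narrow intervals with alisertib alone. Their log2 fold changes had 95% intervals of -0.16 to 0.16, -0.20 to 0.23 and -0.08 to 0.14. MMP14 averaged 349 ± 10.4 CPM with alisertib and 349 ± 36.2 CPM in untreated cells (SD, n = 3). MMP2, MMP13 and TIMP4 did not pass either, with intervals of -0.36 to 0.64, -0.61 to 2.13 and -0.06 to 0.38.

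In cells that also received TGFβ, alisertib raised MMP1 and TIMP3 and no other of the 10 genes passed, where 2.08% of all tested genes did (1.19% higher and 0.89% lower). The groups did not overlap for these 2 genes, against 20.4% of all tested genes. MMP1 had 6.23, 6.69 and 6.03 CPM with both agents, against 2.81, 2.31 and 2.32 CPM with TGFβ. The rise was 2.55-fold (log2 1.35 ± 0.15, edgeR adjusted p = 0.000606). TIMP3 had 172, 160.3 and 163 CPM with both agents, against 139, 133 and 148 CPM with TGFβ, a rise of 0.24 ± 0.05 on the log2 scale (edgeR adjusted p = 0.022). That call was lost without library 4, 5, 10 or 12 (edgeR adjusted p = 0.106, 0.127, 0.0913 and 0.0893) and when only these groups were fitted (0.0749). MMP9 had 20.3, 27.7 and 29 CPM with both agents, against 29.9, 29.9 and 23.1 CPM with TGFβ, and the groups overlapped (log2 -0.11 ± 0.14, 95% interval -0.40 to 0.19). The lowest value of each group came from the library that was set apart, libraries 10 and 6.

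Whether the response to alisertib depended on TGFβ was tested with the interaction, the alisertib effect with TGFβ minus that without it. None of the 10 genes passed in the edgeR fit, where 0.282% of all tested genes did. Of the 10 genes 1, MMP9, had an unadjusted edgeR p under 0.05, as did 1170 of all 20571 tested. Its interaction was -1.09 ± 0.23 on the log2 scale (edgeR adjusted p = 0.0696). DESeq2 called it (adjusted p = 0.000314), as did edgeR without libraries 1, 6, 9 and 10 (-0.98 ± 0.14, adjusted p = 0.000126) and with a covariate for those libraries (-1.10 ± 0.12, adjusted p = 6.97e-06). Without 1 library the estimate was -1.22 to -0.95 and the adjusted p 0.0618 to 0.224. For MMP1, which rose with alisertib in both settings, the interaction was -0.26 ± 0.21 (95% interval -0.72 to 0.20). For TIMP3 it was 0.05 ± 0.07, with an interval of -0.10 to 0.20.

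Against untreated cells, the combination raised all 6 MMPs and 3 TIMPs and lowered TIMP3, so all 10 genes passed, where 39.7% of all tested genes did (19.4% higher and 20.3% lower). The groups did not overlap for 8 of the 10, against 45.7% of all tested genes. The count includes MMP3 and MMP13, which passed the low-count filter through treated libraries and lost their calls in several alternatives, so it supports no property of the list. MMP9 had a fold change of 29.7, MMP2 of 7.47, MMP1 of 3.36, MMP14 of 2.56, TIMP1 of 2.01, TIMP4 of 1.83 and TIMP2 of 1.58. TIMP3 had a log2 fold change of -0.28 ± 0.05 (edgeR adjusted p = 0.000342). In the group means of TIMP3 the order ran from TGFβ at 140.1 ± 7.8 CPM over both agents at 165 ± 6.1 and untreated cells at 199.7 ± 0.192 to alisertib at 227 ± 6.84 CPM (SD, n = 3), and no neighbours in that order overlapped. For MMP1 the order ran from untreated cells over TGFβ and alisertib to both agents, and the last step overlapped. The comparisons share libraries, so their values stand side by side and are not independent of each other.

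MMP3 and MMP13 passed in the combination on few reads. MMP3 had 28, 8 and 42 counts with both agents, against 10, 4 and 4 counts in untreated cells, so that library 11 lay within the untreated range (log2 1.94 ± 0.63, edgeR adjusted p = 0.0236). The call was lost without library 2, 3, 10 or 12 (edgeR adjusted p = 0.0861, 0.0857, 0.0536 and 0.126). MMP13 had 19, 10 and 38 counts with both agents, against 4, 12 and 2 counts in untreated cells (log2 1.74 ± 0.59, edgeR adjusted p = 0.0303). It was lost without library 1, 3 or 12 (edgeR adjusted p = 0.0869, 0.115 and 0.188). When only these groups were fitted, the adjusted p was 0.0537 for MMP3 and 0.0827 for MMP13, and without libraries 1, 6, 9 and 10 it was 0.0665 for MMP13.

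Ratios of RPKM within a library show how proteases and inhibitors stood to each other, with no test because the genes were chosen with earlier results known. MMP9 to TIMP1 was 0.0709, 0.0922 and 0.087 with both agents, 0.101, 0.1 and 0.088 with TGFβ, 0.011, 0.011 and 0.0112 with alisertib, and 0.00545, 0.0053 and 0.00614 in untreated cells. The libraries with TGFβ stood apart from all others, and those with alisertib stood apart from untreated ones. The mean with TGFβ was 17.1 times that of untreated cells, although TIMP1 rose too. MMP14 to TIMP2 was 1.58 ± 0.0666 with both agents, 1.65 ± 0.0786 with TGFβ, 0.954 ± 0.0333 with alisertib and 0.972 ± 0.0488 in untreated cells (SD, n = 3). The transcript of the membrane protease was therefore above that of its partner inhibitor in every library with TGFβ, where the lowest ratio was 1.5, and near it elsewhere, at 0.915 to 1.01.

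MMP2 to TIMP2 stayed low in all groups, at 0.00737 ± 0.000338 with both agents, 0.00724 ± 0.000245 with TGFβ, 0.0017 ± 0.000531 with alisertib and 0.00153 ± 0.000446 in untreated cells. The sum of the 6 MMPs to the sum of the 4 TIMPs was 0.726 ± 0.0375 with both agents, 0.768 ± 0.0219 with TGFβ, 0.412 ± 0.0142 with alisertib and 0.417 ± 0.012 in untreated cells. MMP14 makes up most of the MMP sum, since it held 92.9% or more of the MMP total in each group mean. MMP9 reached 5.06% ± 0.513 of that total with both agents and 5.55% ± 0.503 with TGFβ, and MMP1 reached 3.56% ± 0.837 with alisertib.

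**Figure D4:**
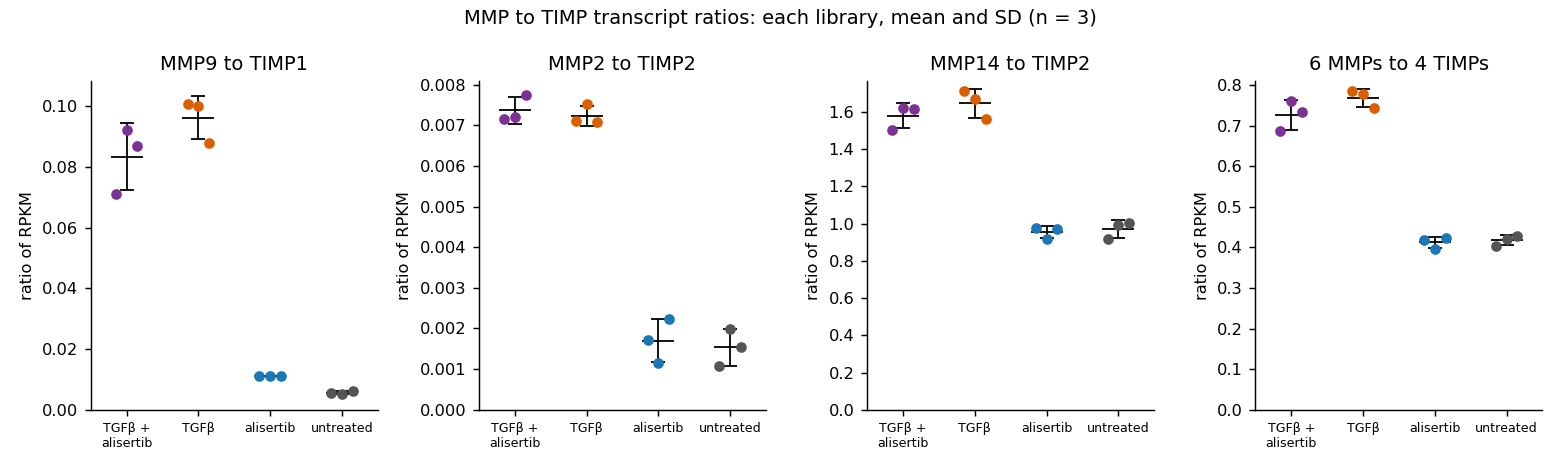
Ratio of RPKM between MMP and TIMP transcripts in each library, with the mean and SD of 3 libraries per group and linear axes from 0. In all 4 panels the libraries with TGFβ lay above those without it, and alisertib alone differed from untreated cells without overlap for MMP9 to TIMP1.

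**Figure D5:**
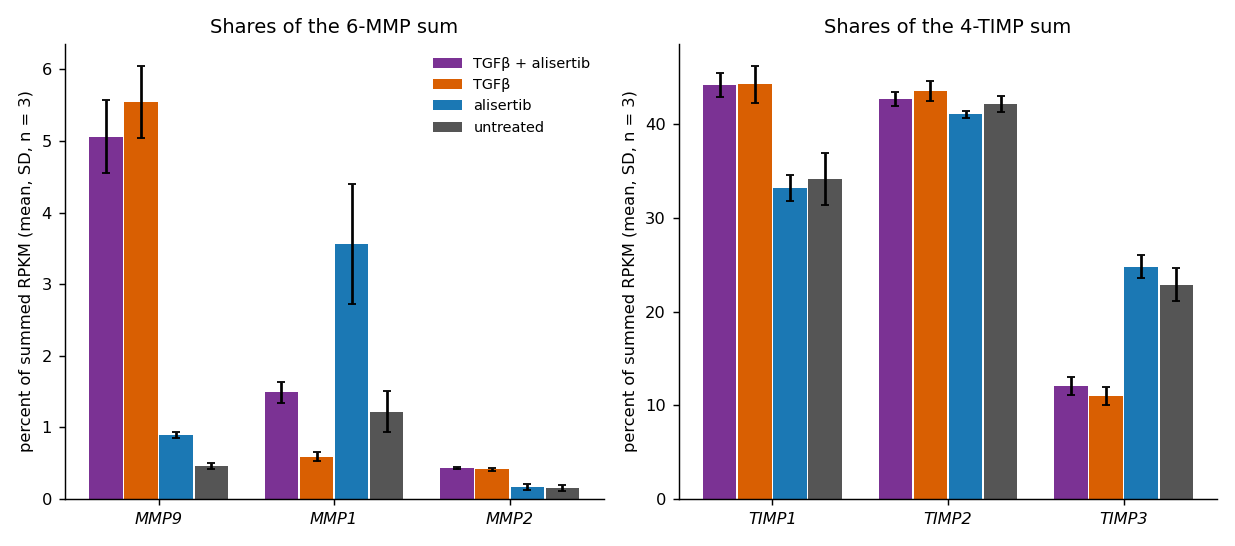
Share of single genes in the summed RPKM of the 6 MMPs (left) and of the 4 TIMPs (right), as mean and SD of 3 libraries. The left panel shows MMP9, MMP1 and MMP2. It leaves out MMP14, which held 92.9% or more, and MMP3 and MMP13, which held 0.138% or less. The right panel leaves out TIMP4, which held 1.12% or less. TIMP3 held 12.1% and 11% with TGFβ present and 24.8% and 22.9% without it.

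In the deposited coordinates, on hg19, MMP1 (ENSG00000196611, chromosome 11 from 102660651 to 102668891), MMP3 (102706532 to 102714534) and MMP13 (102813724 to 102826463) lie in 1 cluster, and MMP9 (ENSG00000100985) lies on chromosome 20 from 44637547 to 44645200. The library kit does not mark the strand, so reads in bases that overlapping genes share cannot be assigned by strand. The overlaps given here are of whole gene spans, and overlap of exons was not tested. The genes TIMP1, TIMP3 and TIMP4 lie inside synapsin genes, a known nested arrangement. SYN1 spans TIMP1 and had 0 to 31 counts, SYN3 spans TIMP3 and had 0 to 2, and SYN2 spans TIMP4 and had 1 to 14, all far under the inhibitor inside. SYN1 was itself called higher with TGFβ against untreated cells (log2 4.45 ± 0.87, edgeR adjusted p = 0.000928). It averaged only 0.17 CPM with TGFβ and 0.007 CPM in untreated cells, and passed the low-count filter through treated libraries. Whether its reads come from SYN1 or from TIMP1 was not tested. DDC8 lies within the span of TIMP2, had 3402 to 7396 counts and moved with it, by 0.61 ± 0.06 on the log2 scale with TGFβ (edgeR adjusted p = 2.79e-06), against 0.58 ± 0.05 for TIMP2. WTAPP1, which overlaps MMP1 and MMP3, had at most 4 counts.

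Of 17 further MMP genes 7 were expressed enough to be tested. With TGFβ against untreated cells 3 of them fell and none rose in edgeR or DESeq2, while 4 did not pass, where 20.1% of all tested genes were lower and 18.5% higher. MMP24 averaged 1.08 ± 0.101 CPM with TGFβ and 7.4 ± 1.94 CPM in untreated cells, a log2 fold change of -2.78 ± 0.17 (edgeR adjusted p = 1.02e-08). MMP15 had a log2 fold change of -0.98 ± 0.20. MMP16, named after its values were seen, averaged 0.634 ± 0.14 CPM with TGFβ and 2 ± 0.46 CPM in untreated cells. With alisertib alone none of the 7 passed in edgeR or DESeq2, where 6.74% of all tested genes passed in edgeR. An unadjusted p under 0.05 was seen for 4 of the 7, and for 4070 of all 20571.

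Of 15 genes for activators, binding partners and other inhibitors of MMPs, 11 were tested, and TGFβ raised 5 and lowered 2 of them, where 38.6% of all tested genes passed (18.5% higher and 20.1% lower). PLAU, the urokinase that generates the MMP-activating protease plasmin, averaged 2909 ± 82.8 CPM with TGFβ and 526 ± 24.1 CPM in untreated cells. LRP1, an endocytic receptor that clears MMP9 and TIMP1, rose 5.81-fold. LCN2, the lipocalin that binds MMP9 and protects it from breakdown, fell to 3.16 ± 0.445 CPM with TGFβ, against 26.3 ± 1.23 CPM in untreated cells (log2 -3.06 ± 0.10, edgeR adjusted p = 1.46e-11). TFPI2, a Kunitz-type inhibitor of plasmin and other matrix-degrading proteases, was the list's only interaction call in edgeR. It averaged 82.9 ± 3.64 CPM with both agents, 51.7 ± 1.56 with TGFβ, 107 ± 2.07 with alisertib and 102 ± 2.42 CPM in untreated cells, and its interaction was 0.62 ± 0.07 on the log2 scale (edgeR adjusted p = 0.00245). With alisertib alone none of the 11 passed in edgeR, and none of the 10 to which DESeq2 gave an adjusted p passed there. Of the 11, 2 had an unadjusted edgeR p under 0.05, as did 4070 of all 20571 tested.

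Of 18 matrix substrates 15 were tested, and with TGFβ 9 rose and 2 fell, where 38.6% of all tested genes passed (18.5% higher and 20.1% lower). COL1A1, a chain of the collagen cut by MMP1, MMP13 and MMP14, rose 23.7-fold and FN1, fibronectin, 7.03-fold. COL1A1 is also among 7 fibroblast markers, whose summed level was 15.3 to 20.5 RPKM in the combination group, 20.2 to 23.5 RPKM in the TGFβ group, 3.02 to 3.56 RPKM in the alisertib group and 3.18 to 3.91 RPKM in the untreated group. Of these markers 3 were above 1 RPKM with TGFβ and 1 in untreated cells, and DCN, COL3A1 and PDGFRA had at most 8, 15 and 30 counts in any library. The other markers of this list were present, with COL1A1 at 0.329 to 10.6, PDGFRB at 1.36 to 7.4, COL1A2 at 0.653 to 4.94 and LUM at 0.289 to 0.712 RPKM over all libraries. Their part in the changes of MMPs and TIMPs was not tested. With alisertib alone 2 of the 15 substrates rose and 1 fell, where 6.74% of all tested genes passed. COL4A6, a basement membrane collagen, rose 1.76-fold and LAMA3, a laminin chain, had a log2 fold change of -0.42 ± 0.06 (edgeR adjusted p = 0.000692).

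The last list held 16 transcription factors of types that act at MMP promoters, and all were tested. TGFβ raised 9 and lowered 4 of the 16, where 38.6% of all tested genes passed (18.5% higher and 20.1% lower). JUNB and JUN, partners in the AP-1 complex, averaged 32.8 ± 6.95 and 180.1 ± 10.2 CPM with TGFβ and 2.04 ± 0.665 and 58.8 ± 4.18 CPM in untreated cells. The ETS-type factor ELK3 rose 2.47-fold. The 4 lowered factors, named after their values were seen, were FOSL2, FOSL1, RUNX2 and JUND. FOSL2, another AP-1 subunit, fell to 171 ± 2.42 CPM with TGFβ, against 378 ± 13 CPM in untreated cells. FOSL1, also an AP-1 subunit, fell less, to 78.4 ± 5.86 CPM with TGFβ, against 124 ± 10.6 CPM in untreated cells. Alisertib alone raised 6 and lowered none, where 6.74% of all tested genes passed (3.55% higher). JUN, ETS1 and FOSL1 rose 1.31-fold, 1.31-fold and 1.29-fold, and the others were FOS, FOSB and ETS2, named after their values were seen. With TGFβ present, none of the 16 passed for alisertib in edgeR or DESeq2, and 4 had an unadjusted p under 0.05, as did 2639 of all 20571 tested. The interaction was called for none of the 16 in edgeR, where 4 had an unadjusted p under 0.05, and for 4, all negative, in DESeq2.

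Likeness of pattern was measured as the root mean square difference between centred means of log2 CPM over the 4 groups, for the 7 genes whose means spanned at least 1, against 11711 or 11712 others with a mean of at least 5 CPM in their highest group. For MMP14 the nearest genes were ITGA2, COL6A2 and TOM1, at 0.0107, 0.0188 and 0.0193. For MMP9 they were MYH16, C4orf26 and ATG9B, at 0.124, 0.193 and 0.196, and for MMP2 GPR143, SLC46A3 and PLEK2, at 0.0781, 0.0862 and 0.0992. For TIMP1 they were UBA6, C3orf67 and PTK6, at 0.0206, 0.023 and 0.0298. For MMP3 the nearest was MMP1, at 0.17. MMP3 itself was too low to be among the genes compared, and of those LINC00973, HIST1H2AC and RP11-30P6.6 were nearest to MMP1, at 0.387 to 0.408. For MMP13, SGK1 and TRBC2 lay at 0.125 and 0.145. Only 4 group means enter each value, which describes the shape of the pattern and nothing else.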

How the data were processed

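The deposited file gives raw read counts of each gene, as whole numbers from the authors' counting, beside the authors' own RPKM. The submitters' processing notes name hg19 and the tools bcl2fastq, TopHat, featureCounts and Subread, without versions or settings in the sources used here. Per the labels' protocols, libraries were made with a TruSeq RNA kit, of a kind that does not mark the strand.

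Counts were fitted with edgeR 4.0.16 in R 4.3.3, using filterByExpr, TMM factors and 1 robust quasi-likelihood fit of all 12 libraries with 8 residual degrees of freedom. P-values were adjusted by Benjamini-Hochberg over 20571 genes, with calls at an adjusted p under 0.05. A standard error is the absolute log2 fold change over the root of F. CPM and RPKM shown use TMM factors and, for RPKM, the file's gene lengths. GC content is that of each gene's longest GENCODE transcript. The fit was tried on simulated counts, drawn independently for each gene and library. These hold no GC-linked deviation of whole libraries, so they cannot show how the fit handles libraries 1, 6, 9 and 10. Alternatives were DESeq2 1.42.0, RLE factors, no low-count filter, only the compared groups, each library left out, and libraries 1, 6, 9 and 10 left out or given a covariate. The 10 genes, the lists and the tests were chosen with earlier results of these data known. Of each list, the 3 largest called changes with a mean of at least 5 CPM in 1 of the groups compared are named, except for items that are not reported here, and other names are marked as chosen after their values were seen. Intervals cover the spread between libraries and assume that it is shared by all groups.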

Additional observations from a re-analysis of the deposited data

How the results depend on the processing

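No paired analysis was possible because the groups share no replicate number, each number standing for 1 library only. No called change of the 10 genes turned direction in any alternative. Of 1067 refitted values of these genes 987 kept direction and side of the threshold, 26 lost their call, 15 gained one, and 39 turned sign, the last all in changes that had not passed.

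Counts of genes called moved most. Without libraries 1, 6, 9 and 10 they were 5073 for alisertib alone, 1434 for alisertib with TGFβ and 744 for the interaction; with a covariate for those libraries 4057, 1820 and 382. DESeq2 gave 692 for alisertib with TGFβ and 188 for the interaction, the interaction had 105 with no low-count filter, and alisertib alone had 623 with only the compared groups. Leaving out 1 library gave 718 to 2598 for alisertib alone, 153 to 754 for alisertib with TGFβ and 19 to 166 for the interaction, against 1387, 428 and 58. Of the 10 genes, 1 passed in the interaction without libraries 1, 6, 9 and 10, with their covariate and with DESeq2. For alisertib with TGFβ 1 passed with only the compared groups and 1 to 2 without 1 library. The causes were not tested.

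Sign changes in log2 fold changes were as follows. For MMP14 with alisertib alone the value was 0.0111 with RLE factors, 0.00377 with the covariate, 0.00406 with only the compared groups and 0.011 with DESeq2, against -0.0012. Without libraries 1, 6, 9 and 10, alisertib alone gave -0.276 for MMP2 and -0.0438 for TIMP1, and the MMP2 interaction was 0.414. Leaving out 1 library gave, for alisertib alone, -0.0852 to 0.05 (MMP14), -0.0848 to 0.398 (MMP2), -0.105 to 0.103 (TIMP1) and -0.0155 to 0.068 (TIMP2). For alisertib with TGFβ it gave -0.73 to 0.178 (MMP13), -0.0413 to 0.0815 (MMP14) and -0.221 to 0.0362 (MMP9). For TGFβ with alisertib it gave -0.0138 to 0.299 (MMP1) and -0.454 to 0.441 (MMP3). For the interaction it gave -0.0432 to 0.1 (MMP14), -0.306 to 0.187 (MMP2), -0.013 to 0.204 (TIMP1) and -0.00379 to 0.0899 (TIMP2).

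Undivided by gene length, the ratios with both agents, TGFβ, alisertib and none were 0.109, 0.126, 0.0145 and 0.00735 for MMP9 to TIMP1, 1.25, 1.31, 0.756 and 0.77 for MMP14 to TIMP2, and 0.832, 0.882, 0.441 and 0.456 for the sums. For MMP2 to TIMP2 they were 0.00645 with both agents and 0.00634 with TGFβ. Ratios from the deposited RPKM moved by less than 1 SD. MMP3 and MMP13 had at most 42 and 38 reads in a library, which limits any statement on them.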
